A study of Mus musculus with 2 samples.

Results

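Apelin, angiopoietin and adrenomedullin are secreted signals that act on receptors of the vessel wall, and the 9 genes described here encode 3 ligands with their receptors: Apln and Aplnr, Angpt2, Tek and Tie1, and Adm, Calcrl, Ramp2 and Ramp3. They were taken as a named list and are 9 of the 53380 features counted in the series. The series consists of 2 single-cell RNA libraries of mouse sciatic nerve. Both come from mice in which Cdh5(PAC)-CreERT2, a tamoxifen-inducible Cre driven by the promoter of the endothelial cadherin gene Cdh5, switches on an R26 TdTomato reporter, so the same reporter background is shared by both groups. Cells with TdTomato and without CD45, a surface protein of blood leukocytes, were sorted from the bridge region of nerves 7 days post-injury (injured) and from pooled uninjured nerves of adult mice (intact). Each condition is 1 library, so no test could be made, and all 95% intervals below are exact and cover counting error only. The effect of injury cannot be told apart from differences between the pools, the sorts or the libraries.

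The authors' annotation divides the endothelial cells into 9 classes, whose codes are used here as given, since the sources do not spell out their abbreviations. After leaving out each cell whose barcode had at least 5 times its UMIs in the other library, 1274 injured and 718 intact endothelial cells remained, with 19989024 UMIs in the injured and 4542225 UMIs in the intact set. A UMI is 1 counted RNA molecule. The median was 11684 UMIs per injured cell and 4461 per intact cell. Shares of cells with a UMI are therefore given as counted and, where stated, also after thinning each cell to 3000 UMIs. The libraries share 298 barcodes, and 77 injured and 66 intact endothelial cells with a shared barcode are still among the cells used. Levels are CPM, the summed UMIs of a gene in a set of cells scaled to a common total, and they do not correct for gene length. Cdh5 had 1132 CPM in injured and 833 CPM in intact endothelium, and the TdTomato transcript had 96.5 CPM in injured and 79.0 CPM in intact endothelium. The 2 pools also differed in the female-specific X-chromosome transcript Xist, with 939 CPM in injured and 282 CPM in intact endothelium. Apln is X-linked, and the part of this difference in its values was not tested.

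The leading genes of most classes matched their codes: Gja4 in EC_ART, Mfsd2a and Slco1a4 in EC_BAR, Gpihbp1 in EC_CAP-PV-, Ackr1 and Selp in EC_VEN-PV+, Top2a in EC_PROLIF and Esm1 and Cxcr4 in EC_TIP. The 10 leading genes of intact EC_CAP-PV+ held 0 capillary and 1 tip marker, although all 6 capillary markers were detected in it, at a sum of 13995 CPM. Those of EC_VEN-PV- held no venous marker in either library, and haemoglobin genes led its intact cells. All 6 venous markers were detected in EC_VEN-PV-, at a sum of 3369 CPM in injured and 1040 CPM in intact cells, beside 3538 CPM in injured and 4129 CPM in intact EC_VEN-PV+. In intact EC_VEN-PV- the sums of barrier and capillary markers were higher than the venous sum, at 2974 and 2507 CPM. In injured EC_VEN-PV- they were lower than it, at 535 and 210 CPM. Intact EC_ART also had a higher sum of barrier markers (1771 CPM) than of arterial markers (1369 CPM). Injured EC_ART had 395 CPM of barrier and 1663 CPM of arterial markers. The part of this difference in the EC_ART ratios was not tested. EC_IMMAT had no marker set to check. Adm was among the 10 leading genes of injured EC_TIP, Aplnr of injured EC_IMMAT and Ramp3 of intact EC_CAP-PV+, so those levels belong to what sets the classes apart. Levels of EC_CAP-PV+, EC_VEN-PV- and EC_IMMAT are given under their codes only, and no ratio of their own is read from EC_CAP-PV+ or EC_VEN-PV-. Orders and ranges of levels cover classes with at least 20 cells in that library. EC_TIP, EC_IMMAT and EC_PROLIF comprised 100, 260 and 162 injured cells but 4, 4 and 11 intact cells, and were not compared between the libraries either. Ratios within a class are given for EC_ART, EC_BAR, EC_CAP-PV- and EC_VEN-PV+. The classes were made by the authors from these same cells, so differences of a gene between classes are descriptions.

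Apelin is a peptide whose receptor, a G-protein-coupled receptor encoded by Aplnr, is found on sprouting and venous endothelium. In growing vascular beds Apln is known as a gene of the tip cells that lead a sprout. Angiopoietin 2, encoded by Angpt2, is stored in and released by endothelial cells and competes with angiopoietin 1 for the receptor tyrosine kinase encoded by Tek. Tie1 is a related receptor that modulates Tek and has no angiopoietin ligand of its own. Adrenomedullin, encoded by Adm, is a vasodilating and barrier-protecting peptide. It binds Calcrl only when that receptor is paired with an accessory membrane protein, Ramp2 or Ramp3. Calcrl paired with Ramp1 instead binds calcitonin gene-related peptide.

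Across the pooled endothelium the ligands Apln and Angpt2 and the receptor Aplnr were higher in injured than in intact nerve, while the Tie receptors, Adm, Calcrl and Ramp2 differed by less than 2-fold. Genes whose 2 library values averaged 10 CPM or more were called measured, and those with a 2-fold difference after 5 CPM was added to both values were called higher or lower. Of the 9 genes 8 were measured, and 3 of them were higher and 0 lower in the injured library. Over all 8268 measured genes, 4.79% were higher and 6.82% were lower by the same rule. The median log2 ratio was 0.33 for the 8 measured genes and 0.04 for all measured genes. The remaining gene, Ramp3, averaged less than 10 CPM. With every cell of a shared barcode left out, the log2 ratios were 1.21 for Apln, 1.59 for Aplnr and 1.45 for Angpt2, and the counts of higher and lower genes were again 3 and 0.

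Apln had 1650 UMIs, or 82.5 CPM, in injured endothelium and 136 UMIs, or 29.9 CPM, in intact endothelium, a ratio of 2.76 (2.31 to 3.31). Its UMIs were found in 30.0% of injured cells (27.5% to 32.6%) and 7.38% of intact cells (5.58% to 9.54%). After thinning, the expected shares were 13.7% of injured and 4.39% of intact cells. The gene is on the minus strand of chromosome X, 48025146 to 48034853 (GRCm38). The level in injured nerve was highest in EC_TIP, at 239 CPM (218 to 262), followed by EC_PROLIF at 101 CPM (91.5 to 111). EC_VEN-PV+ had 81.0 CPM, EC_CAP-PV- 75.1 CPM and EC_IMMAT 65.1 CPM, and the intervals of these 3 neighbours overlapped. Injured EC_VEN-PV-, EC_BAR and EC_ART formed a low group at 6.96, 5.64 and 5.41 CPM, with overlapping intervals. EC_TIP was 7.85% of injured endothelial cells and held 28.5% of their Apln UMIs.

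The 87, 58 and 32 Apln UMIs of 3 EC_TIP cells made up 37.6% of that class's Apln UMIs. The signal was nevertheless broad, since 63 of the 100 EC_TIP cells had at least 1 Apln UMI. In the intact library Apln followed another order. EC_BAR, whose leading genes include the barrier lipid transporter gene Mfsd2a, had the most Apln UMIs, 64 of 136, at 47.0 CPM (36.2 to 60.04). Intact EC_VEN-PV- had 28.4 CPM (15.5 to 47.7), which overlapped both EC_BAR and EC_VEN-PV+ at 23.0 CPM (15.7 to 32.7). Intact EC_CAP-PV- had 10.3 CPM, all 5 UMIs in 1 cell, and EC_ART 6.64 CPM, while the 42 EC_CAP-PV+ cells held none, which allows a share of cells with a UMI of up to 7.14%. Of the 4 intact cells labelled EC_TIP, 1 held 17 Apln UMIs, the most of any intact endothelial cell.

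Within EC_VEN-PV+, the largest class of both libraries, Apln had 81.0 CPM in 362 injured cells and 23.0 CPM in 213 intact cells, a ratio of 3.51 (2.43 to 5.24). In EC_CAP-PV- it had 75.1 CPM over 76 injured cells and 10.3 CPM over 128 intact cells, a ratio of 7.30 (2.999 to 23.1). All 5 intact UMIs were in 1 cell with a barcode found in both libraries. The 79 injured UMIs were in 14 of the 76 cells, and 3 cells with 22, 19 and 11 UMIs held 65.8% of them. EC_BAR ran the other way, with 2 Apln UMIs (5.64 CPM) in 36 injured cells and 64 UMIs in 21 of 181 intact cells, 8.34-fold lower (2.22 to 70.4). The call in EC_BAR did not hold in the mean of per-cell CPM over cells of at least 3000 UMIs, where the log2 ratio was -0.86 in place of -2.29. Keeping all annotated cells gave -1.55 and the mean of per-cell CPM over all cells gave -1.33.

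EC_BAR also held pericyte and smooth-muscle marker RNA. Injured EC_BAR had 3 of 6 such markers, at a sum of 67.6 CPM, with Pdgfrb, Kcnj8 and Cspg4 at 0. Intact EC_BAR had all 6, at a sum of 996 CPM, of which Acta2 was 909 CPM, Rgs5 69.8 CPM and the pericyte receptor gene Pdgfrb 3 UMIs. The sum was 1648 CPM in the 21 intact EC_BAR cells with Apln and 832 CPM in the 160 without it, at median depths of 10888 and 4362.5 UMIs. Without cells holding at least 2 markers of another cell type, the Apln log2 ratio in EC_BAR was -2.29. The make-up of the class differed too. All 6 barrier markers were detected in both libraries, at a sum of 1482 CPM in injured and 4414 CPM in intact EC_BAR, and the transporter gene Slco1a4 had 116 CPM in injured and 1098 CPM in intact cells. The arterial marker Gja4 had 273 CPM in injured and 14.7 CPM in intact EC_BAR. The part of these differences in the EC_BAR ratios was not tested.

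**Figure D1:**
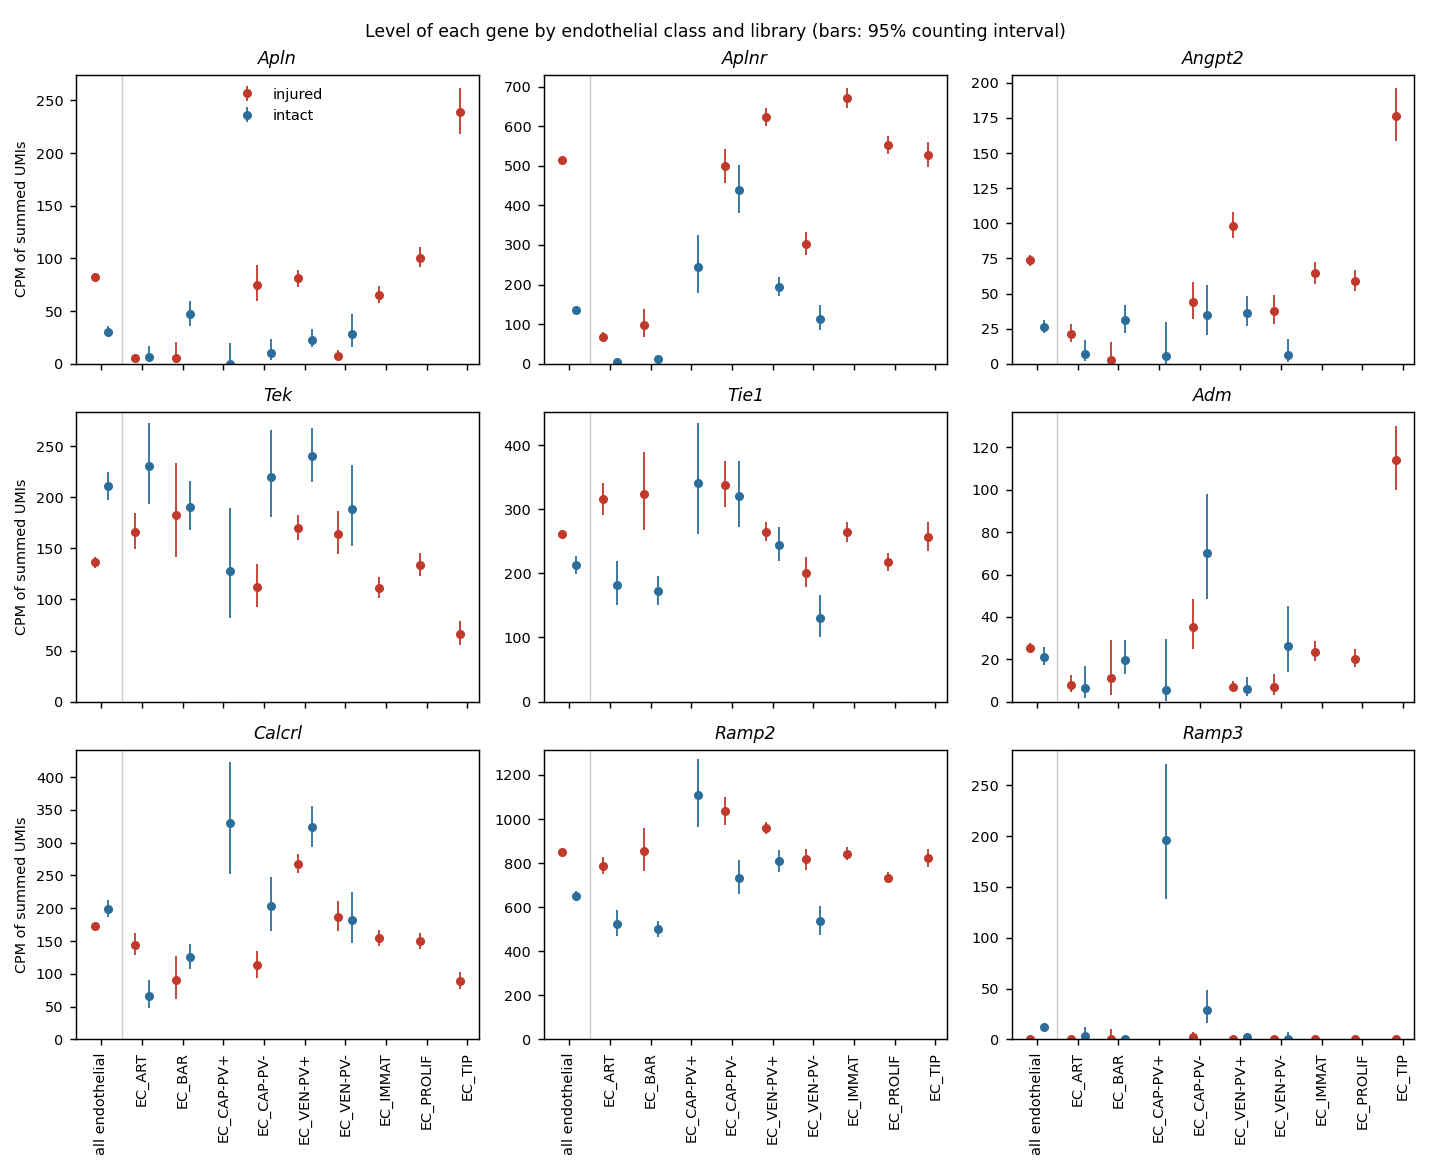
Level of each gene, in CPM of summed UMIs, for the pooled endothelium and each class with at least 20 cells, injured in red left of intact in blue; bars are exact 95% counting intervals and each panel has its own scale from 0. In the injured library Apln, Angpt2 and Adm peak in EC_TIP (239, 177 and 114 CPM), and Ramp3 peaks in intact EC_CAP-PV+ (197 CPM).

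Angpt2 lies on the minus strand of chromosome 8, 18690263 to 18741562, inside Mcph1, which is read from the opposite strand. It had 1471 UMIs (73.6 CPM) in injured and 119 UMIs (26.2 CPM) in intact endothelium, a ratio of 2.81 (2.33 to 3.42). Mcph1 had 114 UMIs in injured and 10 in intact endothelium, and the sources used here do not say whether counting used the strand. Angpt2 UMIs occurred in 35.5% of injured and 8.36% of intact cells, or 14.3% of injured and 6.40% of intact cells after thinning. As with Apln, injured EC_TIP was highest, at 177 CPM (158 to 196), and 72 of its 100 cells had a UMI. EC_VEN-PV+ was next at 98.4 CPM (89.7 to 108). EC_IMMAT, EC_PROLIF, EC_CAP-PV-, EC_VEN-PV- and EC_ART followed at 64.4, 58.8, 43.7, 37.6 and 21.2 CPM, each overlapping its neighbour, and EC_BAR had 1 UMI (2.82 CPM).

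Intact Angpt2 levels were 36.4 CPM in EC_VEN-PV+, 35.0 CPM in EC_CAP-PV- and 30.9 CPM in EC_BAR, which overlapped. EC_ART, EC_VEN-PV- and EC_CAP-PV+ had 6.64, 6.09 and 5.32 CPM. Within classes, Angpt2 was higher in injured EC_VEN-PV+, at 98.4 against 36.4 CPM in the intact class (ratio 2.70, 2.01 to 3.71). It was also higher in injured EC_ART (21.2 CPM, 43 UMIs) than in intact EC_ART (6.64 CPM, 4 UMIs), a ratio of 3.19 (1.16 to 12.2). That arterial call did not hold without cells carrying 2 markers of another cell type (log2 0.68) or in the mean over cells of at least 3000 UMIs (log2 0.81), in place of 1.17. Angpt2 in EC_BAR was 10.9-fold lower in the injured library, with 1 UMI against 42 UMIs in intact cells (1.86 to 443). In EC_CAP-PV- Angpt2 had 43.7 CPM in injured and 35.0 CPM in intact cells, and the interval of their ratio included no difference.

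The ratios of Apln, Angpt2 and Aplnr depended on how the classes were weighted. An equal-weight average of EC_ART, EC_BAR, EC_CAP-PV-, EC_VEN-PV+ and EC_VEN-PV-, each with 20 or more injured and intact cells, gave log2 ratios of 0.50 for Apln, 0.71 for Angpt2 and 1.04 for Aplnr. The pooled values were 1.33 for Apln, 1.33 for Angpt2 and 1.89 for Aplnr. With EC_VEN-PV- also left out of the average, since its leading genes did not match its code, the log2 ratios were 0.81 for Apln, 0.53 for Angpt2 and 0.97 for Aplnr. Both averages leave out EC_TIP, EC_IMMAT and EC_PROLIF. They also give injured EC_BAR, with 36 cells and 1.78% of injured endothelial UMIs, the same weight as each other class. The part of each of these in the shifts was not tested. Aplnr was just past the 2-fold rule in the first and just short of it in the second, and Apln and Angpt2 were short of it in both. Without EC_TIP cells alone, the pooled log2 ratios were 1.17 for Apln and 1.14 for Angpt2.

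**Figure D2:**
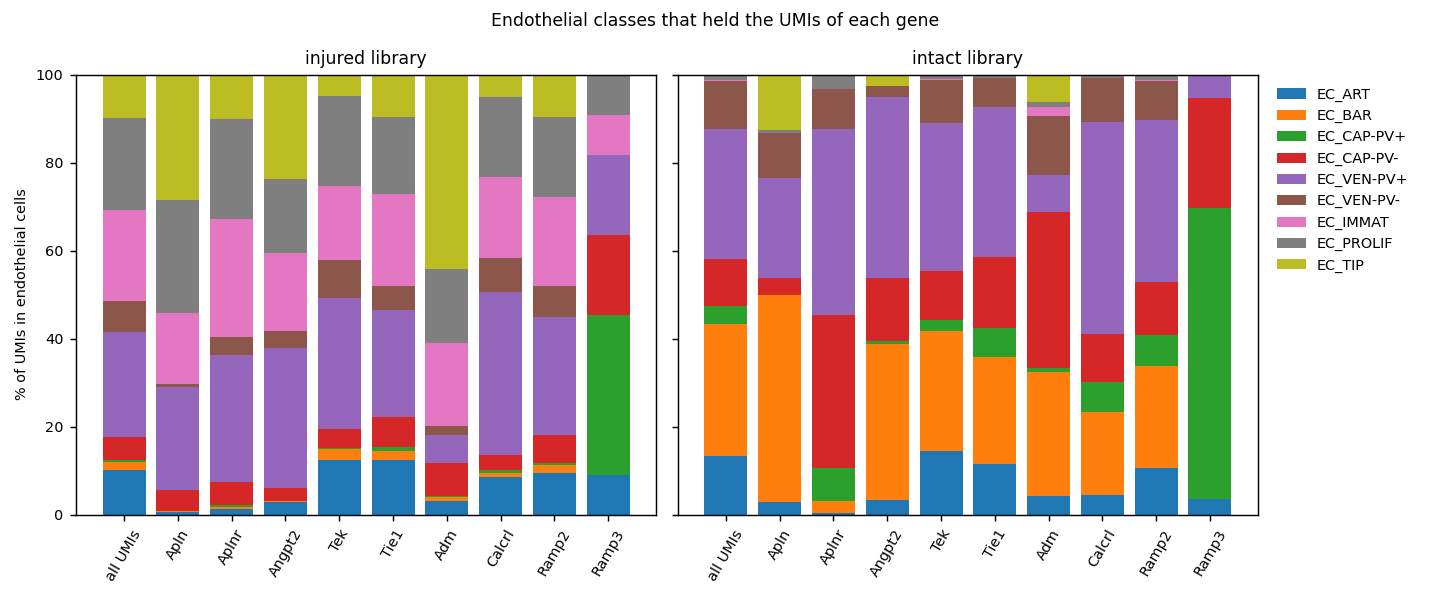
Share of each gene's endothelial UMIs (y axis, %) held by each class, injured library left and intact library right, with the share of all UMIs as the first bar. EC_TIP holds 9.86% of all injured endothelial UMIs but 44.3% of Adm, 28.5% of Apln and 23.7% of Angpt2 UMIs, and intact EC_CAP-PV+ holds 66.1% of the 56 intact Ramp3 UMIs.

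Adm, on the plus strand of chromosome 7 (110627661 to 110629820), differed little in the pooled endothelium, with 508 UMIs (25.4 CPM) in injured and 96 UMIs (21.1 CPM) in intact cells, a ratio of 1.20 (0.97 to 1.51). Its direction depended on EC_TIP. Without that class the levels were 15.7 CPM in injured and 19.9 CPM in intact endothelium, a log2 ratio of -0.26 in place of 0.22. Injured EC_TIP had 114 CPM (99.7 to 130), with a UMI in 59 of 100 cells, and held 44.3% of the injured Adm UMIs. Injured EC_CAP-PV- followed at 35.2 CPM (24.8 to 48.5), overlapping EC_IMMAT at 23.4 CPM, and EC_PROLIF had 20.2 CPM. The other injured classes of at least 20 cells had 6.94 to 11.3 CPM. Among intact classes of at least 20 cells EC_CAP-PV- was highest, at 70.0 CPM (48.5 to 97.8), above EC_VEN-PV- at 26.4 CPM and EC_BAR at 19.8 CPM.

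Within EC_CAP-PV- Adm was 1.99-fold lower in injured than in intact cells (1.21 to 3.26), which was short of the 2-fold rule on the log2 scale with 5 CPM added (-0.90). Reporter-sorted barcodes that the authors did not class include a fibroblast-like group, 196 injured and 173 intact barcodes with median depths of 12089 UMIs (injured) and 8495 UMIs (intact). Adm UMIs occurred in 29.1% of the injured and 17.9% of the intact barcodes of that group, above the 17.3% of injured and 9.19% of intact endothelial cells. After thinning, the endothelial shares of Adm were 5.52% of injured and 4.89% of intact cells. Whether that group expresses Adm or holds free RNA was not tested. In EC_VEN-PV+, the largest class, Adm UMIs occurred in 23 of 362 injured and 7 of 213 intact cells. Median depths there were 10151.5 UMIs (injured) and 4893 UMIs (intact). The shares of the group were thus not reached in every class. Adm shares of the pooled endothelium are read neither as expression nor as background. Those of EC_CAP-PV-, 26.3% of injured and 18.8% of intact cells, lay near the shares of the group as counted. Median depths of EC_CAP-PV- were 11917 UMIs (injured) and 2628.5 UMIs (intact), so the intact shares were not compared at like depth. The 59.0% in injured EC_TIP (48.7% to 68.7%, median depth 16011.5 UMIs) lay above the shares of the group. Apln UMIs occurred in 3.06% of the injured fibroblast-like barcodes and in 0 of the 173 intact ones, which allows up to 1.73%. Aplnr was found in 5.10% of injured and 1.16% of intact barcodes of the group and Angpt2 in 4.08% of injured and 0.58% of intact ones, all below the endothelial shares. An annotated antisense gene overlaps Adm and had 0 UMIs in both libraries.

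The promoters of Apln and Adm are shown because these ligands were both highest in EC_TIP of injured nerve and are known as genes that respond to low oxygen. Each sequence is the 250 bases before the start site that RefSeq gives, on the gene's own strand, at chrX:48034854-48035103 (minus strand) for Apln and chr7:110627407-110627656 (plus strand) for Adm, both GRCm38.p6. Capitals mark matches to ACGTG or GCGTG, the core that hypoxia-inducible factors bind, searched on both strands.
Apln: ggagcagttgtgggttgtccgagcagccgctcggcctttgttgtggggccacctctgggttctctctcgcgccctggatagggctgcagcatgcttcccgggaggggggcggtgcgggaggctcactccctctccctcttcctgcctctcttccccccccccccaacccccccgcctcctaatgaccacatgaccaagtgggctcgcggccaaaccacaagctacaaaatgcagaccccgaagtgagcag
Adm: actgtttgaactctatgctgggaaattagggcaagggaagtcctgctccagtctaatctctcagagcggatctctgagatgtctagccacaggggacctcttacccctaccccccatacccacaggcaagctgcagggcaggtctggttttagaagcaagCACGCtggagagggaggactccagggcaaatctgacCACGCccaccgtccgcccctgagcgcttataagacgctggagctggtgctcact
Adm had 2 matches, both to GCGTG read on the opposite strand and so printed as its reverse complement, beginning 90 and 54 bases before the start site. These 2 do not overlap each other. A match describes letters and is not a measured binding site. Of 32851 promoters in the same table, 38.6% had at least 1 match in a window of this length and 16.7% had at least 2. RefSeq promoters were found for 6 of the 9 genes. Besides Adm, Ramp3 had 2 matches, both to GCGTG and 1 on each strand, and Apln, Tek, Tie1 and Calcrl had 0.

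Aplnr, on the plus strand of chromosome 2 at 85136225 to 85139923, showed the largest difference among the 8 measured genes. It had 10263 UMIs (513 CPM) in injured and 614 UMIs (135 CPM) in intact endothelium, a ratio of 3.80 (3.50 to 4.13). Its UMIs occurred in 81.8% of injured and 31.9% of intact cells, and in 64.6% of injured and 24.8% of intact cells after thinning. Injured EC_IMMAT was highest at 670 CPM (645 to 696), overlapping EC_VEN-PV+ at 623 CPM (601 to 646). EC_PROLIF, EC_TIP and EC_CAP-PV- followed at 553, 528 and 498 CPM, each overlapping its neighbour. Injured EC_VEN-PV- had 304 CPM, EC_BAR 98.6 CPM and EC_ART 68.4 CPM, and the intervals of EC_BAR and EC_ART overlapped. Receptor RNA was thus spread over the venous, capillary, immature, proliferating and tip codes, and lowest in EC_BAR and EC_ART.

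Intact Aplnr was highest in EC_CAP-PV-, at 438 CPM (382 to 501). EC_CAP-PV+ had 245 CPM, EC_VEN-PV+ 193 CPM and EC_VEN-PV- 114 CPM, with EC_CAP-PV+ and EC_VEN-PV+ overlapping. EC_BAR had 12.5 CPM and EC_ART 3.32 CPM, with overlapping intervals. Within classes, Aplnr differed little in EC_CAP-PV-, at 498 CPM in injured and 438 CPM in intact cells, a ratio of 1.14 (0.97 to 1.34). In EC_VEN-PV+ it was 3.22-fold higher in the injured library (2.84 to 3.67). The 2 classes lowest in intact nerve, EC_ART and EC_BAR, were higher in the injured library. EC_ART had 139 UMIs in 31 of 144 injured cells (68.4 CPM) and 2 UMIs in 91 intact cells (3.32 CPM), a ratio of 20.6 (5.60 to 172). EC_BAR had 35 UMIs in 12 of 36 injured cells (98.6 CPM) and 17 UMIs in 11 of 181 intact cells (12.5 CPM), a ratio of 7.90 (4.31 to 15.0).

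In EC_VEN-PV+, 3 of 7 measured members were higher, Apln, Aplnr and Angpt2, and 0 lower, where 3.77% of all measured genes were higher and 4.61% lower. EC_ART had 3 of 6 higher, Aplnr, Angpt2 and Calcrl, and 0 lower, against 6.07% higher and 7.31% lower of all genes. In EC_BAR 1 of 8 was higher, Aplnr, and 2 were lower, Apln and Angpt2, beside 6.29% higher and 6.87% lower of all genes. EC_CAP-PV- had 1 of 9 higher, Apln, and 1 lower, Ramp3, where 5.76% of all measured genes were higher and 9.21% lower.

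**Figure D3:**
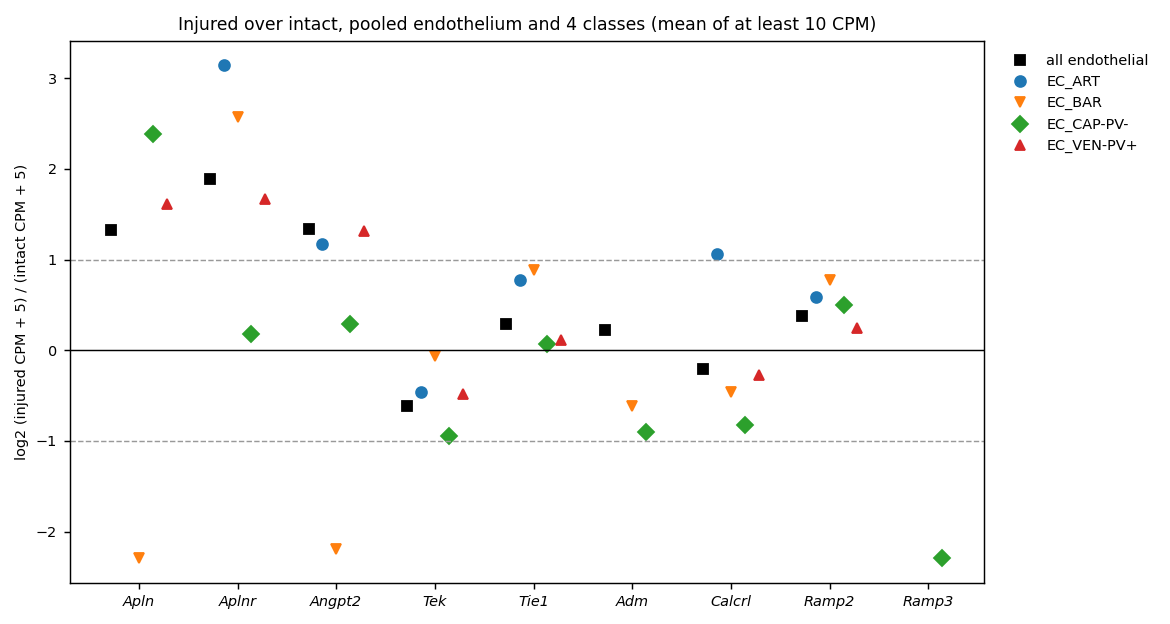
Log2 ratio of injured over intact CPM, with 5 CPM added to both, for the pooled endothelium (black) and 4 classes; a missing point is a gene under a mean of 10 CPM there, and the dashed lines mark 2-fold. Aplnr lies above the upper line in EC_ART, EC_BAR and EC_VEN-PV+ but near 0 in EC_CAP-PV- (0.18), and Apln lies below the lower line in EC_BAR (-2.29) and above the upper one in EC_CAP-PV- (2.39) and EC_VEN-PV+ (1.62).

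Apln and its receptor occurred in the same cells in the injured library. Of 382 injured cells with an Apln UMI, 366 also had an Aplnr UMI, or 95.8% (93.3% to 97.6%), compared with 75.8% (72.8% to 78.6%) of the 892 cells without Apln. Cells with both were deeper, at a median of 18295.5 UMIs, than cells with Aplnr alone at 10892 UMIs. After thinning to 3000 UMIs the shares were 77.3% of cells with Apln and 62.5% of cells without it. As a level, Aplnr was 600 CPM (584 to 617) in cells with Apln and 451 CPM (439 to 463) in cells without it. Conversely, 35.1% of injured cells with Aplnr had Apln, against 6.90% of those without Aplnr. After thinning these shares were 16.4% with and 8.74% without Aplnr.

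Within some classes the shares lay closer together. EC_ART and EC_BAR were low in both genes. Thinned injured EC_VEN-PV+ had Aplnr in 82.0% of cells with Apln and 73.8% without, EC_IMMAT in 81.7% and 78.0%, and EC_PROLIF in 77.9% and 70.2%, in the same order. Thinned EC_CAP-PV- had 79.9% with and 63.0% without Apln, and thinned EC_VEN-PV- 69.4% with and 54.6% without, gaps about as wide as in the pooled endothelium but on few cells with Apln. EC_TIP went the other way. There Aplnr UMIs were found in 92.1% (82.4% to 97.4%) of the 63 cells with Apln and 94.6% (81.8% to 99.3%) of the 37 without, or 68.8% with and 77.3% without Apln after thinning. Aplnr in that class was 451 CPM (417 to 487) in cells with Apln and 755 CPM (680 to 835) in cells without it. So 58 of 100 EC_TIP cells held ligand and receptor RNA together, while the receptor level was lower in the cells with the ligand.

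In intact nerve the overlap was small. Of 53 cells with Apln, 19 also had Aplnr, or 35.8% (23.1% to 50.2%), against 31.6% (28.1% to 35.3%) of cells without Apln, and 22.8% against 24.8% after thinning. The class with most intact Apln, EC_BAR, had 1 cell with both among 21 Apln cells and 11 Aplnr cells. Intact EC_VEN-PV+ had 12 of 19 Apln cells with Aplnr.

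**Figure D4:**
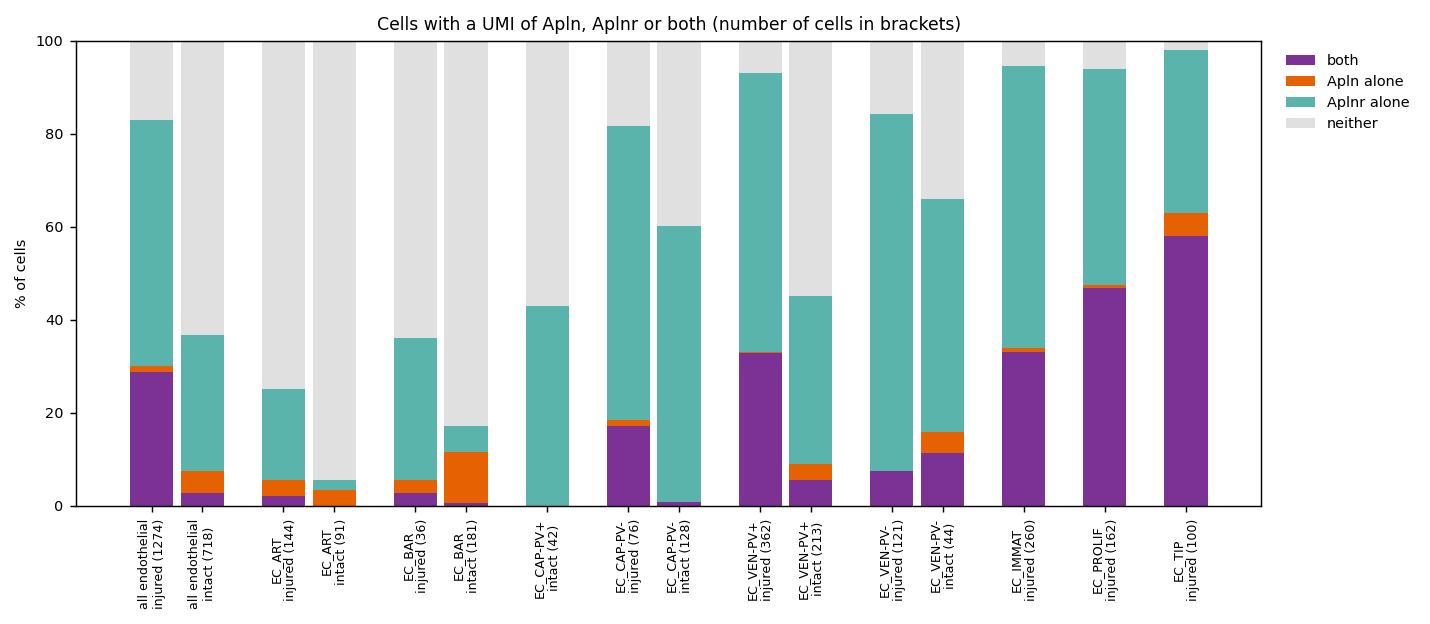
Share of cells (y axis, %) with a UMI of both Apln and Aplnr, of Apln alone, of Aplnr alone or of neither, as counted, for the pooled endothelium and each class with at least 20 cells, injured left of intact, with cell numbers in brackets. Cells with both are 28.7% of injured and 2.65% of intact endothelial cells and 58.0% of injured EC_TIP, and in intact EC_BAR cells with Apln alone outnumber those with Aplnr alone.

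RNA of the 3 ligands was also counted in single cells together. In injured EC_TIP 41 of 100 cells (31.3% to 51.3%) had UMIs of Apln, Angpt2 and Adm, and 13 had none of them. Across the endothelium 86 of 1274 injured cells (6.75%) and 9 of 718 intact cells (1.25%) had all 3, and 579 injured and 578 intact cells had none. Depth enters these counts. Adm UMIs also occurred in 29.1% of injured and 17.9% of intact fibroblast-like barcodes, from a source that was not tested. The counts over the whole endothelium are therefore not read as co-expression of Adm. After thinning, Angpt2 was found in 21.5% of injured cells with Apln and 13.2% of those without. Over the 14 groups of class and library with at least 20 cells, the log2 levels of Apln and Angpt2 had a Pearson correlation of 0.80, Apln and Adm of 0.59 and Apln and Aplnr of 0.43. These are descriptions over groups that share 2 libraries and differ in depth.

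Tek, the angiopoietin receptor gene on the plus strand of chromosome 4 (94739289 to 94874976), had 2725 UMIs in injured and 958 in intact endothelium. The level was 136 CPM in injured and 211 CPM in intact cells, 1.55-fold lower in the injured library (1.44 to 1.67), which is within the 2-fold rule. Its share of cells ran against its level as counted, at 70.8% of injured and 56.8% of intact cells, but not after thinning, at 32.2% of injured and 45.9% of intact cells. EC_TIP had the lowest Tek of the injured classes of at least 20 cells, at 66.5 CPM (55.6 to 78.9). EC_BAR, EC_VEN-PV+, EC_ART and EC_VEN-PV- had 183, 170, 166 and 164 CPM and overlapped. EC_PROLIF had 133 CPM, and EC_CAP-PV- and EC_IMMAT each had 112 CPM. Among these classes EC_TIP was thus lowest in Tek and highest in Angpt2, its ligand. EC_VEN-PV+, next in Angpt2, was among the highest in Tek.

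In intact classes of at least 20 cells Tek levels spanned 128 CPM in EC_CAP-PV+ to 240 CPM in EC_VEN-PV+, and the intervals of EC_VEN-PV+, EC_ART (231 CPM) and EC_CAP-PV- (220 CPM) overlapped. Within classes Tek was nearest to the 2-fold rule in EC_CAP-PV-, at 112 CPM in injured and 220 CPM in intact cells, 1.96-fold lower (1.497 to 2.57). In EC_BAR it had 183 CPM in injured and 191 CPM in intact cells, and the interval of the ratio, 0.72 to 1.26, included no difference.

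Tie1, also on chromosome 4 (118471191 to 118490061, minus strand), had 5209 UMIs (261 CPM) in injured and 965 UMIs (212 CPM) in intact endothelium, a ratio of 1.23 (1.14 to 1.32). Among the injured classes of at least 20 cells it ranged from 201 CPM in EC_VEN-PV- and 217 CPM in EC_PROLIF to 337 CPM in EC_CAP-PV-. Among intact classes of that size it ranged from 130 CPM in EC_VEN-PV- to 340 CPM in EC_CAP-PV+. The classes with lowest intact Tie1 among those compared were those in which the injured level was higher. EC_ART had 316 CPM in injured and 183 CPM in intact cells, a ratio of 1.73 (1.41 to 2.14), and EC_BAR had 324 CPM in injured and 173 CPM in intact cells, a ratio of 1.88 (1.49 to 2.36). Neither reached the 2-fold rule. In EC_CAP-PV- (337 CPM injured, 321 CPM intact) and EC_VEN-PV+ (264 CPM injured, 245 CPM intact) the intervals of the ratio included no difference.

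Calcrl, the receptor of adrenomedullin on chromosome 2 (84330626 to 84425411, minus strand), had 3445 UMIs (172 CPM) in injured and 905 UMIs (199 CPM) in intact endothelium, a ratio of 0.87 (0.80 to 0.93). Among injured classes of at least 20 cells it was highest in EC_VEN-PV+, at 268 CPM (253 to 283), and lowest in EC_BAR and EC_TIP, at 90.2 and 88.8 CPM with overlapping intervals. EC_VEN-PV-, EC_IMMAT, EC_PROLIF and EC_ART, at 187, 154, 150 and 144 CPM, and EC_CAP-PV- at 113 CPM lay between. Intact EC_CAP-PV+ and EC_VEN-PV+ were highest, at 330 and 323 CPM with overlapping intervals, followed by EC_CAP-PV- at 204, EC_VEN-PV- at 183, EC_BAR at 126 and EC_ART at 66.4 CPM. Injured EC_TIP was thus the class highest in Adm and among the lowest in its receptor gene. EC_ART was the class in which Calcrl passed the 2-fold rule, with 293 UMIs (144 CPM) in injured and 40 UMIs (66.4 CPM) in intact cells, a ratio of 2.17 (1.56 to 3.10). In EC_CAP-PV- it was 1.80-fold lower in the injured library (1.37 to 2.37).

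Ramp2, the main partner of Calcrl in endothelium, was detected in most cells. It had 16968 UMIs (849 CPM) in injured and 2956 UMIs (651 CPM) in intact endothelium, a ratio of 1.30 (1.25 to 1.36). It was found in 96.9% of injured and 83.0% of intact cells, or 89.0% of injured and 79.8% of intact cells after thinning. The gene is on the plus strand of chromosome 11, 101246028 to 101259546. Its annotated span overlaps Vps25 on the same strand, which had 68.4 CPM in injured and 53.5 CPM in intact endothelium, and the sources used here do not say how reads in the overlap were assigned. Levels in injured classes of at least 20 cells ranged from 733 CPM in EC_PROLIF to 1035 CPM in EC_CAP-PV-. Those in intact classes of that size ranged from 500 CPM in EC_BAR to 1111 CPM in EC_CAP-PV+. All 4 compared classes had a ratio above 1 and under 2, from 1.19 in EC_VEN-PV+ to 1.71 in EC_BAR. Of injured cells with Calcrl, 922 of 936 also had Ramp2 (98.5%), as did 345 of 379 intact cells with Calcrl (91.0%). Injured cells without Calcrl had Ramp2 in 92.6%. After thinning, Ramp2 was found in 89.4% of injured cells with Calcrl and 88.7% without. The thinned intact shares were 81.1% with and 78.8% without Calcrl. Fibroblast-like barcodes without a class had Ramp2 UMIs in 53.1% of injured and 26.0% of intact barcodes and Calcrl UMIs in 14.3% of injured and 2.89% of intact ones, below the endothelial shares.

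Ramp3, the alternative partner, was found mainly in 2 classes of the intact library. On chromosome 11 (6658521 to 6677475, plus strand), it had 11 UMIs (0.55 CPM) in injured and 56 UMIs (12.3 CPM) in intact endothelium, 22.4-fold lower in the injured library (11.6 to 47.4), but with a mean below 10 CPM it was not called. Among 13 injured EC_CAP-PV+ cells, 2 held 4 Ramp3 UMIs, of which 3 were in 1 cell. Intact EC_CAP-PV+ held 37 of the 56 UMIs, in 20 of its 42 cells, at 197 CPM (138 to 271). EC_CAP-PV- had 2 UMIs (1.90 CPM) in 76 injured cells and 14 UMIs (28.8 CPM) in 6 of 128 intact cells, 15.2-fold lower in the injured library (3.48 to 137). EC_CAP-PV+ was 1.02% of injured and 5.85% of intact endothelial cells. Fibroblast-like barcodes without a class had Ramp3 UMIs in 5.61% of injured and 15.6% of intact barcodes, above the pooled endothelium (0.71% of injured and 4.32% of intact cells) but below the 47.6% of intact EC_CAP-PV+.

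Other genes of the 3 pathways were read from lists of known ligands, receptors, enzymes and effectors. Of 5 apelin genes 2 were measured, 1 higher and 0 lower, beside 4.79% higher and 6.82% lower of all measured genes. Prcp, a carboxypeptidase that can trim apelin, was 2.75-fold higher in the injured library (2.49 to 3.05), at 255 CPM against 92.5 CPM in intact cells. Furin, a proprotein convertase, had 58.6 CPM in injured and 56.8 CPM in intact cells. Apela, the other ligand of Aplnr, had 0 UMIs in both.

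Of 10 angiopoietin and Tie genes 6 were measured, 0 higher and 2 lower, beside 4.79% higher and 6.82% lower of all measured genes. Ptprb, the endothelial phosphatase that dephosphorylates Tek, had 530 CPM in injured and 1075 CPM in intact endothelium, 2.03-fold lower (1.96 to 2.10). Its level in injured EC_TIP was 196 CPM, and in EC_VEN-PV+ it was 768 CPM in injured and 1467 CPM in intact cells. Grb14, an adaptor protein gene, had 2.60 CPM in injured and 56.6 CPM in intact endothelium, 21.7-fold lower (16.1 to 29.9), and 172 of its 257 intact UMIs were in EC_BAR. The integrin genes Itgb1 and Itga5 had log2 ratios of 0.87 and 0.78, and Foxo1, the transcription factor that Tek signalling restrains, 0.04. Tnip2, whose product can bind Tek, was at -0.43. Angpt1, the activating ligand that mural cells supply, had 0 UMIs in injured and 3 in intact endothelium.

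Of 9 adrenomedullin genes 4 were measured, 0 higher and 1 lower, beside 4.79% higher and 6.82% lower of all measured genes. Pam, which amidates adrenomedullin and other peptides, had 115 CPM in injured and 393 CPM in intact endothelium, 3.41-fold lower (3.20 to 3.63). Within EC_VEN-PV+ Pam had 173 CPM in injured and 509 CPM in intact cells. The scavenging receptor gene Ackr3 and the receptor gene Gpr182 had log2 ratios of -0.68 and -0.84, and Crcp 0.31. Ramp1 had 1 UMI in injured and 0 in intact cells, and Calca, the calcitonin gene-related peptide gene, had 1 UMI in each.

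A list of 12 oxygen-responsive genes, read because Apln and Adm are known to respond to low oxygen, had 11 measured members, 1 higher and 5 lower in the injured library, beside 4.79% higher and 6.82% lower of all measured genes. Pgk1, a glycolytic kinase, was 2.44-fold higher (2.18 to 2.75). Slc2a1, Vegfa, Egln3, Ndrg1 and Ddit4 were lower, and the glucose transporter gene Slc2a1 had 65.7 CPM in injured and 488 CPM in intact endothelium. Slc2a1 is also a marker of barrier endothelium, and EC_BAR was 2.83% of injured and 25.2% of intact endothelial cells. The median gene of the list was Bnip3, which just missed the 2-fold rule at 11.2 CPM in injured and 27.3 CPM in intact endothelium (log2 -0.999). The listed gene that was not measured, Car9, had 27 UMIs in injured and 0 in intact endothelium. These values are for the pooled endothelium and not for EC_TIP.

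Genes whose levels over the 14 class-by-library groups were most like those of a member were named by the highest Pearson correlation among 4761 genes. For Apln this was Laptm4b (0.88) and for Aplnr Ndufa8 (0.94), followed by Cmtm3 (0.91). Adm was most like Nos2 (0.89), Angpt2 most like Actr2 (0.90) and Ramp2 most like Plvap (0.94), the gene of the diaphragms of leaky capillaries. Tek was most like Tln2 (0.94), Tie1 most like Map1lc3b (0.91), Calcrl most like Trib2 (0.93) and Ramp3 most like the guidance receptor gene Robo2 (0.97). Intact EC_CAP-PV+ alone held 37 of the 56 intact Ramp3 UMIs, and all injured endothelium held 11. The weight of that group in the Ramp3 correlation was not tested.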

How the data were processed

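Single-cell RNA libraries of sorted endothelial cells from injured and intact sciatic nerve were analysed, 1 library per condition. The values are UMI counts per gene and barcode, deposited by the authors as filtered matrices and not normalised. The authors' cell annotation gave the classes. Per the submitters' processing notes, Cell Ranger 3.0.2 and 6.1.2 and Seurat 4.0.1 were used with mm10 and GRCm38. Doublet treatment and strand use in counting are not stated in the sources used here, and no doublet caller was run.

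The libraries held 2023 injured and 1618 intact barcodes with 27157892 and 9401203 UMIs. Cells of the 9 endothelial classes were kept unless their barcode had at least 5 times their UMIs in the other library, which removed 48 injured and 100 intact cells. UMIs were summed per class and library. Levels have exact Poisson 95% intervals, ratios exact conditional binomial intervals and shares of cells exact Clopper-Pearson intervals. Where no cell had a UMI, 3 counts set the upper limit. Thinned shares are the expected values at 3000 UMIs per cell, with 51 injured and 236 intact cells of lower depth left out. Log2 ratios add 5 CPM, and a gene with a mean of at least 10 CPM and a 2-fold difference was called. Classes were compared with at least 20 cells in both libraries.

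All 9 genes are named, with listed pathway genes of at least 10 CPM and, for each of the 9, the genes of most similar level. Pathway genes under that level are named for their count only, after their values were seen. The genes, lists and rules were chosen with earlier results of these data known. Markers of each class were checked among its 10 leading genes. Fibroblast-like barcodes without a class had at least 1000 UMIs and at least 4 of 6 fibroblast markers. They also had more UMIs of these markers than of the pan-endothelial markers, so they were picked against endothelial RNA. The scripts were tested on simulated data. Gene positions come from a GENCODE annotation of GRCm38, in which 94.8% of 53379 deposited gene identifiers matched with their version. Python 3.11.15, numpy 2.4.6, scipy 1.17.1, pandas 2.3.3 and matplotlib 3.10.9 were used.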

Additional observations from a re-analysis of the deposited data

Results flagged for a closer look

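The direction of the injured-to-intact difference in Apln differed between classes. Its log2 ratio was -2.29 in EC_BAR, 2.39 in EC_CAP-PV- and 1.62 in EC_VEN-PV+. The difference between the classes was not tested, since each condition is 1 library, and EC_BAR rests on 2 injured UMIs. In injured EC_CAP-PV-, 3 cells held 65.8% of the Apln UMIs.

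Angpt2 likewise had a log2 ratio of 1.17 in EC_ART, -2.20 in EC_BAR and 1.32 in EC_VEN-PV+. This difference was not tested either, and EC_BAR rests on 1 injured UMI.

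Barcodes to which the authors gave no class, 516 injured and 738 intact after the shared-barcode step, also carried RNA of these genes. Apln had 42.5 CPM in injured and 1.94 CPM in intact unclassed barcodes, a ratio of 21.9, with 69 of its 290 injured UMIs in 1 barcode. Aplnr had 153 CPM in injured and 20.9 CPM in intact ones, a ratio of 7.30. The ratios were 2.40 for Angpt2, 1.40 for Tek, 1.70 for Tie1, 1.83 for Ramp2 and 1.16 (0.996 to 1.35) for Calcrl. Adm had 38.4 CPM in injured and 50.3 CPM in intact unclassed barcodes (ratio 0.76), and Ramp3 had 5.28 CPM in injured and 16.4 CPM in intact ones (ratio 0.32). Pan-endothelial markers summed to 1696 CPM in injured and 962 CPM in intact unclassed barcodes. Lymphatic markers summed to 644 CPM in injured and 4334 CPM in intact ones. The part of these differences in make-up in the ratios was not tested. Apart from the fibroblast-like group given above and a processing alternative that pooled all barcodes, these barcodes entered no comparison.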

How the results depend on the processing

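The count of 3 higher genes in pooled endothelium was 1 when classes were weighted equally, where Apln and Angpt2 were under 2-fold, 0 when EC_VEN-PV- was also left out of that average, 2 with the filter raised to 50 CPM, which left Angpt2 out, and 3 under the other alternatives, including the removal of the cell with most UMIs of each gene. This removal and the average without EC_VEN-PV- were chosen after seeing the data. The count of 0 lower genes was 1 without a filter on low genes, the added gene being Ramp3. The share of injured Apln cells with Aplnr was 77.3% after thinning to 3000 UMIs and 94.1% to 96.6% under the other alternatives. The count in EC_VEN-PV+ stayed at 3. Of 459 recomputed log2 ratios, 36 moved beyond their counting interval and no called ratio changed sign. Aplnr in pooled endothelium ranged from 0.97 to 2.29 and Apln from 0.50 to 1.70. The Apln log2 ratio in EC_CAP-PV- was 4.26 without barcodes found in both libraries, which left 0 intact UMIs. The sign of the uncalled pooled ratios of Adm (-0.72 to 0.50) and Calcrl (-0.27 to 0.18) depended on the cells used. The cause was not tested for these shifts. Depth limits EC_BAR, where the injured library has 36 cells, and Ramp3, with 11 injured UMIs. No paired analysis was possible because each condition is 1 library, and for the same reason no replicate could be left out.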
